A study of Mus musculus with 12 samples.

Results

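Genes of cystine uptake, glutathione metabolism and the antioxidant response were examined in mouse primary cortical astrocytes, the star-shaped glia of the brain. Slc7a11, Gclc, Gclm, Gss, Gpx4, Nfe2l2, Hmox1, Nqo1, Txnrd1 and Srxn1 were taken by gene name, 10 of the 22845 genes listed in both experiments. The set was chosen by the read counts of Slc7a11, which were higher in the treated libraries of both experiments, so its values are given as a description and without a test. The other 9 genes were added for their place in the same pathway, with results of these data known, and their counts are descriptions of the set.

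The cells came from wild-type C57BL/6J cortex at postnatal day 3, were grown to confluency in serum over 8 to 10 days, and were purified, transduced and then held in serum-free medium for 1 week. Each of 4 groups had 3 libraries of total RNA. The overexpression experiment set cells that received a virus for GADD45G against cells that received GFP. The knockdown experiment set cells with a short hairpin RNA against Gadd45g (shGADD45G) against cells with a control hairpin (shLuc). The sources used here do not give the virus, its promoter, the species of the introduced GADD45G or the number of cultures behind each group. Group names are those of the labels.

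Cystine, the oxidized form of cysteine, enters astrocytes through system xc-, an exchanger that releases glutamate and is built from SLC7A11 and the heavy chain SLC3A2. Inside the cell it is reduced to cysteine, which limits the synthesis of glutathione, and astrocytes are known to supply glutathione precursors to neurons. The transcription factor NRF2, encoded by Nfe2l2, is held low by KEAP1 and, when released, pairs with small MAF proteins on antioxidant response elements (ARE) of many of these genes. Slc7a11 is also a known target of ATF4, the factor of the integrated stress response, which with C/EBP proteins binds C/EBP-ATF response elements (CARE).

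The promoter stretches that hold a match to the elements of these factors are shown here for reference, and no link between a match and a response was tested. RefSeq windows (GRCm38.p6) of 250 bases before to 50 after a start site were found for 8 of the 10 genes, 13 windows in all, and Gclc and Hmox1 had none. They were searched on both strands for the ARE core TGACNNNGC and for the CARE letters TGATGNAA, which do not overlap each other in these windows. Capitals mark the matches, read on the gene's own strand, so a match on the other strand appears as its reverse complement. The Slc7a11 stretch (chr3:50443614-50443863, minus strand) is the 250 bases before its start and holds 2 CARE matches, TGATGCAA at -66 and its reverse complement at -47. The Gclm stretch (chr3:122245393-122245461, plus strand), the Nfe2l2 stretch (chr2:75704865-75704913, minus strand), the Txnrd1 stretch (chr10:82859084-82859152, plus strand, the second of its 3 windows) and the Srxn1 stretch (chr2:152105542-152105571, plus strand, after its start) each hold 1 ARE core match.
Slc7a11: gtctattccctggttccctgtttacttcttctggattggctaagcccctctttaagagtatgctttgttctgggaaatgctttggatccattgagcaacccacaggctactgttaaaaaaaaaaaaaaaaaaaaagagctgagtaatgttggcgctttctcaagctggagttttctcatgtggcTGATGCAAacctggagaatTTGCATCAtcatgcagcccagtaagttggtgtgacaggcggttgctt
Gclm: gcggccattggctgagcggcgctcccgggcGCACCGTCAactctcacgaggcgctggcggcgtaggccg
Nfe2l2: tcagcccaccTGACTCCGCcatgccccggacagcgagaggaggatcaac
Txnrd1: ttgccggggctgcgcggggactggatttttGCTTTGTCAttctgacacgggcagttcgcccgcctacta
Srxn1: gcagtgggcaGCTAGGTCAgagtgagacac

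Of the 13 windows of these 8 genes, 4 held an ARE core match and 1, of Slc7a11, held CARE matches. Of all 32851 windows of this length in the table, 12.4% held the ARE core and 3.97% the CARE letters. The windows of Gss, Gpx4 and Nqo1 held neither. A match is a description of the letters and not evidence of binding, and enhancers farther away were not searched.

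The libraries held 15626655 to 20756461 counts over the listed genes. Gadd45g itself ran from 121 to 134 CPM (read counts scaled to library size with edgeR's trimmed-mean factors) in GFP and from 139 to 150 CPM in GADD45G libraries, a log2 fold change of 0.15 (SE 0.05). By edgeR's quasi-likelihood test Gadd45g was called higher there (adjusted p = 0.030). Between the hairpins it ran from 129 to 151 CPM in shLuc and from 67.2 to 147 CPM in shGADD45G libraries, and that difference did not pass edgeR's quasi-likelihood test (log2 fold change -0.32, SE 0.22, adjusted p = 0.408), with shGADD45G library 2 inside the shLuc range. Directions are therefore those between libraries labelled in this way. All 9 astrocyte markers, among them Gfap, Aqp4 and Slc1a3, were detected in every group, with a summed level of 3827 to 5219 CPM per library. Of these 9, 7 were called higher and 1 lower with GADD45G, and 5 lower and 0 higher between the hairpins. The shares of all genes tested were 30.6% higher and 29.7% lower with GADD45G, and 5.15% higher and 5.27% lower between the hairpins. Of the libraries, 2 stood apart. GADD45G library 3 held 1712 CPM of lung and red blood cell genes (10 of 10 detected) against at most 5.79 CPM in every other library, and 304 CPM of 16 microglia and macrophage markers against 35.3 and 37.3 CPM in the other GADD45G libraries. The library shGADD45G 1 had the lowest Gadd45g level and differed from the other shGADD45G libraries in several of the 10 genes.

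Slc7a11, the cystine-importing chain of system xc-, was nearly silent in both control groups. It stood at 1.54, 1.05 and 0.538 CPM in the GFP libraries, which are 30, 22 and 11 counts, and at 67.7, 80.5 and 69.9 CPM in the GADD45G libraries. The groups did not overlap, and the log2 fold change was 6.13 (SE 0.17), a ratio of means of 69.8. In the knockdown experiment it stood at 2.84, 4.25 and 2.80 CPM in shLuc and at 14.05, 18.7 and 24.9 CPM in shGADD45G libraries. Again every treated library lay above every control, with a log2 fold change of 2.53 (SE 0.25). Leaving out each library in turn gave 5.78 to 6.51 in the overexpression and 2.30 to 2.76 in the knockdown experiment. In the authors' deposited table its log2 fold changes were 6.13 and 2.53. The gene lies on chromosome 3 from 49892526 to 50443614 on the minus strand (mm10, as for all gene positions here).

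**Figure D1:**
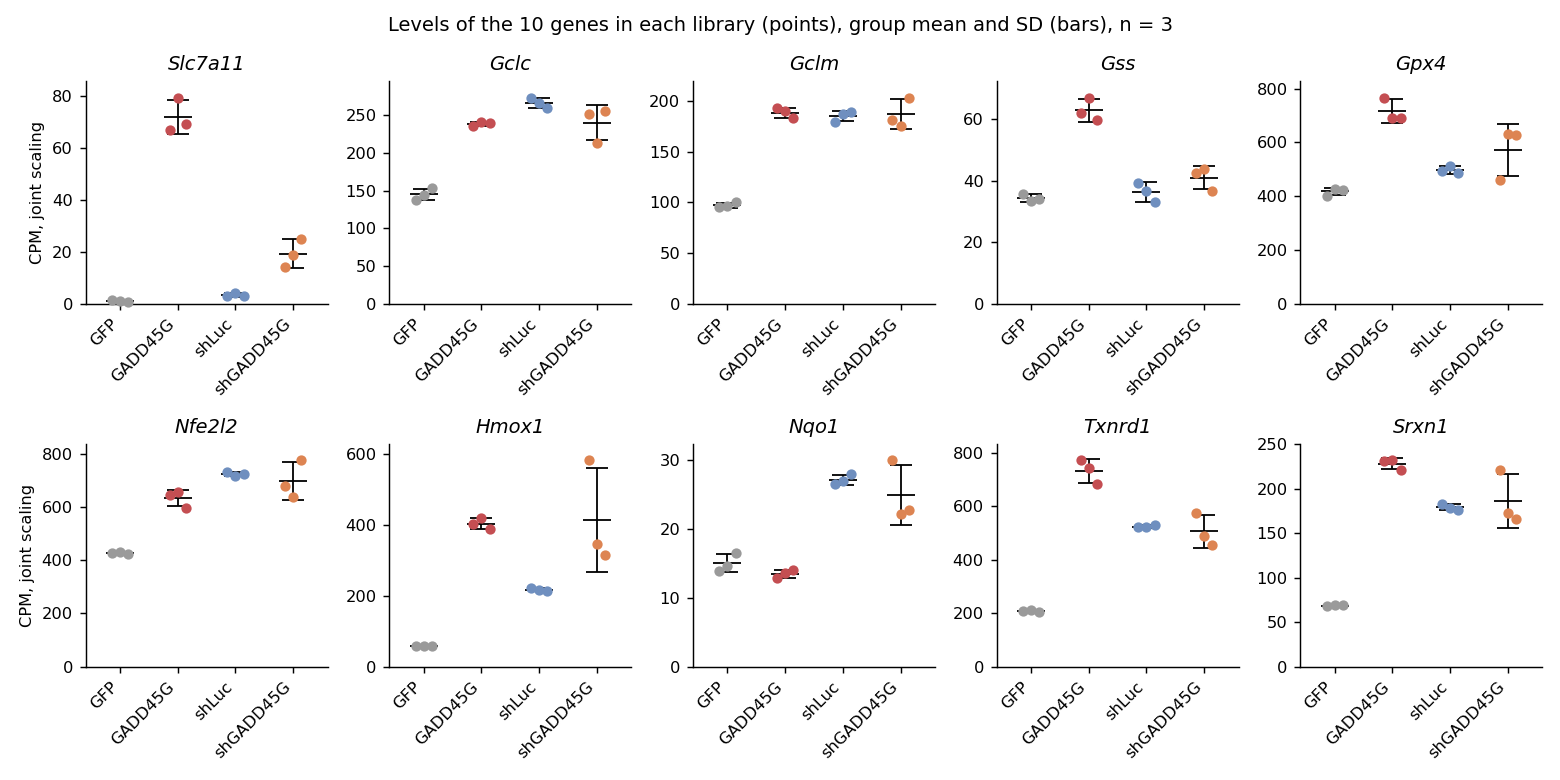
Levels of the 10 genes in CPM (y axis, from 0, both tables scaled together) in the 3 libraries of each of the 4 groups (points), with group means and SD (bars). Slc7a11 is near 0 in GFP and shLuc, 8 of the other 9 genes are lowest in the GFP group, and shGADD45G library 1 is the high Hmox1 point at 582 CPM.

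In the overexpression experiment 8 of the other 9 genes were higher in GADD45G libraries and 1, Nqo1, did not pass the test. Of all 15418 genes tested, 60.3% were called and 30.6% were called higher, which is the background for this count. The median log2 fold change of the 9 genes was 0.88, against 0.01 over all genes tested. Counted without Slc7a11, 8 of 9 had every treated library above every control, where 33.7% of all genes did. Without GADD45G library 3 the count of calls was also 8, where 32.5% of all genes were called higher. Between shLuc and shGADD45G 1 of the 9, Hmox1, was higher and 8 did not pass, where 10.4% of 14914 genes were called and 5.15% were called higher and 5.27% lower. The median there was 0.02, against 0.01 over all genes. Since the set was named from these contrasts, nothing is read from these counts about the set as a whole.

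Gclc spans 77754535 to 77794485 of chromosome 9 and Gclm 122245557 to 122270732 of chromosome 3, both plus strand. On chromosome 2 lie Gss from 155563181 to 155592810 and Nfe2l2 from 75675513 to 75704641, both on the minus strand, and Srxn1 from 152105516 to 152111376 on the plus strand. On chromosome 10, Gpx4 spans 80047166 to 80056439 and Txnrd1 82833951 to 82897712, both on the plus strand. On chromosome 8, Hmox1 spans 75093621 to 75100589 on the plus strand and Nqo1 107388225 to 107403206 on the minus strand.

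The enzymes of glutathione synthesis rose with GADD45G. Gclc encodes the catalytic subunit of glutamate-cysteine ligase, the rate-limiting enzyme, and stood at 139, 144 and 154 CPM in GFP and at 238, 245 and 242 CPM in GADD45G libraries. Its log2 fold change was 0.73 (SE 0.05, adjusted p = 2.6e-07), by the same edgeR test as every other adjusted p here. Gclm, the modifier subunit that raises the affinity of the enzyme for glutamate, went from 95.5, 96.5 and 100.4 CPM to 195, 193 and 185 CPM, a log2 fold change of 0.97 (SE 0.05, adjusted p = 1.7e-08). Gss, which encodes the glutathione synthetase of the last step, went from 35.9, 33.3 and 34.2 CPM to 62.6, 68.0 and 60.1 CPM, a log2 fold change of 0.88 (SE 0.06, adjusted p = 2.0e-07). None of the 3 genes overlapped between the groups, and 33.7% of all genes tested had every treated library above every control. Gss shares part of its locus on chromosome 2 with Acss2 on the opposite strand, which averaged 658 counts per library, and the sources used here do not say whether the counting used strand.

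The same 3 genes did not pass the test in the knockdown experiment, where 10.4% of all genes tested were called. Gclc ran from 258 to 271 CPM in shLuc and from 213 to 255 CPM in shGADD45G libraries, all below the controls, with a log2 fold change of -0.15 (SE 0.09, adjusted p = 0.330). Among all genes tested, 16.4% had every treated library below every control. Gclm overlapped between the groups, at 178 to 188 and 175 to 203 CPM (log2 fold change 0.02, SE 0.08, adjusted p = 0.930). Gss overlapped too, at 32.7 to 38.8 and 36.5 to 43.4 CPM (0.18, SE 0.11, adjusted p = 0.325). Slc7a11 was thus higher in shGADD45G libraries while no gene of glutathione synthesis in the set passed there.

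Gpx4 encodes the selenoenzyme that uses glutathione to reduce lipid peroxides in membranes and restrains ferroptosis, a form of iron-dependent cell death. It stood at 403, 429 and 426 CPM in GFP and at 776, 703 and 697 CPM in GADD45G libraries, without overlap (log2 fold change 0.79, SE 0.05, adjusted p = 1.7e-07). In the knockdown experiment it stood at 489, 509 and 482 CPM in shLuc and at 457, 627 and 625 CPM in shGADD45G libraries (0.21, SE 0.12, adjusted p = 0.308). There shGADD45G library 1 lay below and the other treated libraries above all controls, and without that library Gpx4 was called higher (0.35, SE 0.06, adjusted p = 0.0026). A transcribed processed pseudogene, Gpx4-ps2, was counted at 389 and 510 mean counts in GFP and GADD45G libraries, so some reads of this gene may be shared.

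Nfe2l2, which encodes NRF2 itself, had the smallest change of the 8 genes that rose with GADD45G. It went from 427, 430 and 424 CPM in GFP to 654, 667 and 603 CPM in GADD45G libraries, a log2 fold change of 0.59 (SE 0.05, adjusted p = 9.0e-07). In the knockdown experiment it ran from 709 to 723 CPM in shLuc and from 634 to 773 CPM in shGADD45G libraries, with overlap (-0.05, SE 0.09, adjusted p = 0.792). NRF2 is regulated mainly at the level of its protein, which these data do not measure.

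Of Hmox1, Txnrd1, Srxn1 and Nqo1, which like Gclc and Gclm are known NRF2 targets, 3 were higher in the overexpression experiment and 1 did not pass. Of all genes tested there, 30.6% were called higher and 29.7% lower. Hmox1 encodes heme oxygenase 1, which degrades heme to biliverdin, iron and carbon monoxide. It went from 58.3, 58.0 and 57.5 CPM in GFP to 407, 425 and 391 CPM in GADD45G libraries, a log2 fold change of 2.81 (SE 0.05, adjusted p = 7.9e-12). Txnrd1, the cytosolic thioredoxin reductase, went from 209, 211 and 206 CPM to 780, 753 and 687 CPM (1.83, SE 0.05, adjusted p = 2.3e-10). Srxn1, the sulfiredoxin that repairs over-oxidized peroxiredoxins, went from 67.9, 69.0 and 69.1 CPM to 234, 235 and 222 CPM (1.75, SE 0.05, adjusted p = 1.5e-10). In all 3 the groups were far apart, by ratios of means of 7.03, 3.55 and 3.36. Nqo1, a quinone reductase widely used as an NRF2 marker, went the other way and within the spread of its groups. It stood at 13.9, 14.6 and 16.5 CPM in GFP and at 13.0, 13.7 and 14.1 CPM in GADD45G libraries (-0.14, SE 0.10, adjusted p = 0.241).

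Among the same 4 genes, Hmox1 passed in the knockdown experiment and the other 3 did not. Of all genes tested there, 5.15% were called higher and 5.27% lower. Hmox1 stood at 220, 213 and 213 CPM in shLuc and at 578, 342 and 313 CPM in shGADD45G libraries (0.93, SE 0.19, adjusted p = 0.0144). All treated libraries lay above all controls, but library 1 was far above the others, and without it the log2 fold change was 0.61 (adjusted p = 0.000211). With all treated libraries kept, the call was lost without any single shLuc library (adjusted p = 0.0652 to 0.0731), with log2 fold changes of 0.93 to 0.95. Txnrd1 ran from 516 to 524 CPM in shLuc and stood at 572, 484 and 454 CPM in shGADD45G libraries (-0.04, SE 0.09, adjusted p = 0.823). Srxn1 ran from 175 to 181 CPM and stood at 219, 172 and 165 CPM (0.06, SE 0.11, adjusted p = 0.770). Nqo1 ran from 26.2 to 27.7 CPM and stood at 29.7, 21.96 and 22.7 CPM (-0.11, SE 0.13, adjusted p = 0.635). In each of these 3 genes shGADD45G library 1 lay above, and the other shGADD45G libraries below, every shLuc library.

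**Figure D2:**
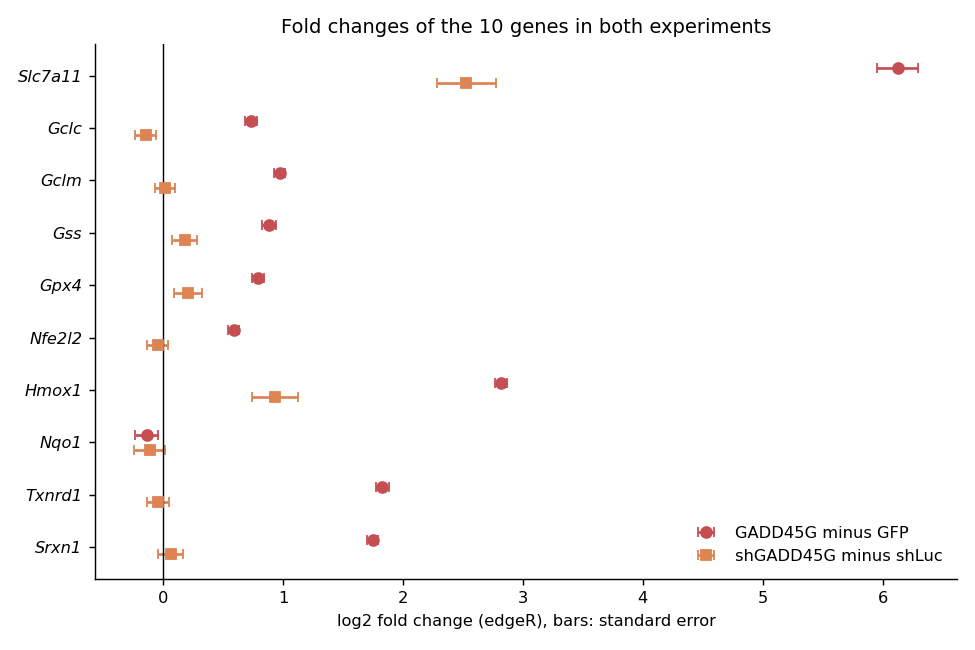
Log2 fold change from edgeR (x axis) of each of the 10 genes (y axis) in the overexpression experiment (circles) and the knockdown experiment (squares), with bars for the standard error. Slc7a11 and Hmox1 lie right of 0 in both, whereas Gclc, Gclm, Nfe2l2, Txnrd1 and Srxn1 lie right of 0 in the overexpression experiment and near 0 in the knockdown experiment.

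The difference between the experiments was tested in a fit of all 12 libraries, as the effect of GADD45G over GFP minus that of shGADD45G over shLuc. For 8 of the 9 genes the effect was larger in the overexpression experiment. Of 15900 genes tested, 41.0% were called, 20.2% in that direction and 20.7% in the other. The difference was 1.87 (SE 0.23, adjusted p = 1.5e-05) for Hmox1, 1.86 (SE 0.11, adjusted p = 9.4e-09) for Txnrd1 and 1.68 (SE 0.12, adjusted p = 7.8e-08) for Srxn1. It was 0.95 (SE 0.09) for Gclm, 0.87 (SE 0.10) for Gclc, 0.70 (SE 0.12) for Gss, 0.63 (SE 0.10) for Nfe2l2 and 0.58 (SE 0.14, adjusted p = 0.0039) for Gpx4. Nqo1 gave -0.03 (SE 0.16, adjusted p = 0.892). For Slc7a11 the difference was 3.595 (SE 0.38), given without a test.

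The control groups themselves stood at different levels when both tables were scaled together, which bears on each of these differences. In 9 of the 10 genes, all but Gss, every shLuc library lay above every GFP library, as was the case for 34.2% of 15900 genes, where the median ratio of shLuc to GFP was 1.00. The ratio of shLuc to GFP means was 3.76 for Hmox1, 3.20 for Slc7a11, 2.61 for Srxn1, 2.52 for Txnrd1 and 1.91 for Gclm. It was 1.84 for Gclc, 1.81 for Nqo1, 1.70 for Nfe2l2 and 1.19 for Gpx4, and 1.06 for Gss. Against the shLuc libraries, the GADD45G libraries were all higher for 6 genes (Slc7a11, Gss, Gpx4, Hmox1, Txnrd1 and Srxn1), a pattern seen in 28.2% of genes. They were all lower for Gclc, Nfe2l2 and Nqo1, as in 27.2% of genes, and Gclm overlapped, at 188.7 and 185.5 CPM. These groups come from separate tables and were not tested against each other, and experiment and control construct cannot be told apart.

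Slc7a11 had the widest range over the groups as a ratio of means, in the order GADD45G (71.8 ± 6.54 CPM, SD, n = 3), shGADD45G (19.3 ± 5.43 CPM), shLuc (3.33 ± 0.832 CPM) and GFP (1.04 ± 0.497 CPM), with no overlap between neighbours. For Hmox1 the order was shGADD45G (413.5 ± 147 CPM), GADD45G (402.7 ± 15.3 CPM), shLuc (217 ± 4.57 CPM) and GFP (57.8 ± 0.446 CPM), and the first pair overlapped. Nqo1 was the only gene of the set with its lowest mean in the GADD45G group, at 13.5 ± 0.569 CPM, overlapping GFP at 14.9 ± 1.31 CPM, while shLuc stood at 27.1 ± 0.716 CPM.

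Levels between genes were compared per length, with the FPKM values that the authors deposited. Gpx4 had the highest mean FPKM of the 10 genes and Slc7a11 the lowest in all 4 groups. In GFP libraries they stood at 241 ± 7.86 and 0.0742 ± 0.0356 FPKM (SD, n = 3), and in GADD45G libraries at 414 ± 24.7 and 5.13 ± 0.479 FPKM. Even at its highest, Slc7a11 thus stayed below Gss (10.6 ± 0.655 FPKM) and Nqo1 (8.63 ± 0.366 FPKM) of the same libraries. Hmox1 passed Gclc and Nfe2l2 in the order, going from 32.8 ± 0.282 FPKM in GFP to 229 ± 9.10 FPKM in GADD45G libraries. Neighbours in the order overlapped in the shGADD45G group alone, where Gpx4 overlapped Hmox1, Hmox1 overlapped Nfe2l2, Txnrd1 overlapped Srxn1 and Srxn1 overlapped Gclc.

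The other genes of the pathway were counted in 8 lists that were chosen with earlier results of these data known. Of the cystine and cysteine supply genes, 4 of 7 rose with GADD45G and 0 fell (median 0.46), beside 30.6% of all genes higher and 29.7% lower. The same background applies to the other lists in that experiment, and 5.15% higher and 5.27% lower between the hairpins. Slc3a2, the heavy chain that carries SLC7A11 to the membrane, rose from 259 ± 8.42 to 888 ± 50.03 CPM (SD, n = 3; log2 fold change 1.78, SE 0.05, adjusted p = 2.5e-10). Cbs, the first enzyme of transsulfuration from homocysteine to cysteine, rose by 1.10 (SE 0.11), and Mat2a, which makes S-adenosylmethionine, rose by 0.52 (SE 0.04). In the knockdown experiment 2 of 7 rose, Slc1a4, a neutral amino acid transporter gene (0.42, SE 0.09, adjusted p = 0.0127), and Mat2a (0.30, SE 0.08, adjusted p = 0.0353). Cth, which releases cysteine from cystathionine, was the next by p in that experiment and did not pass (0.43, SE 0.19, adjusted p = 0.179, and called higher without shGADD45G library 1). With all libraries Slc3a2 did not pass between the hairpins (0.14, SE 0.09, adjusted p = 0.365).

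Among the glutathione turnover genes, 1 rose in both experiments. Chac1, which encodes an enzyme that degrades glutathione inside the cell and is a target of ATF4, rose from 3.41 ± 0.473 to 41.8 ± 4.62 CPM with GADD45G (3.61, SE 0.12, adjusted p = 7.9e-10). It also rose in shGADD45G libraries, from 9.75 ± 1.12 to 31.7 ± 11.3 CPM (1.70, SE 0.25, adjusted p = 0.0025). Of 10 tested, 6 rose and 1 fell with GADD45G, where 30.6% of all genes were called higher and 29.7% lower. Among those that rose was Abcc1, an exporter of glutathione and its conjugates (1.11, SE 0.05), while Ggt7, of the gamma-glutamyltransferase family, fell by 1.20 (SE 0.07). Between the hairpins 1 rose and 1 fell, the 5-oxoprolinase gene Oplah, which fell by 0.49 (SE 0.08, adjusted p = 0.0040), and Abcc1 did not pass (0.25, SE 0.08, adjusted p = 0.0756). Gsr, the reductase that recycles glutathione, had 0.15 (SE 0.05, adjusted p = 0.0301) with GADD45G and 0.22 (SE 0.16, adjusted p = 0.423) in the knockdown experiment. The Gsr call was lost without GADD45G library 3.

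The list of glutathione peroxidases, transferases and related enzymes had more genes lower than higher with GADD45G. Of 26 tested, 16 fell, 3 rose and 7 did not pass (median -0.58), where 29.7% of all genes were called lower and 30.6% higher. Gstm1, an abundant mu-class transferase, fell from 2410 ± 20.4 to 784 ± 56.0 CPM (-1.62, SE 0.05, adjusted p = 4.9e-10). Gstm2 fell from 115 ± 2.65 to 35.5 ± 2.70 CPM (-1.69, SE 0.06), and Gstt1, of the theta class, from 86.4 ± 3.81 to 15.2 ± 2.43 CPM (-2.51, SE 0.09). The Gstm genes are close relatives in one cluster, so the value of any one of them is uncertain if reads map to several. With the hairpin against Gadd45g 2 of 25 rose and 0 fell, or 4 and 3 without shGADD45G library 1. Without that library the shares of all genes were also larger, at 9.08% higher and 8.99% lower, against 5.15% and 5.27% with all libraries. Gstm2 was among those that rose there, from 26.2 ± 0.461 to 55.8 ± 7.08 CPM (1.09, SE 0.11, adjusted p = 0.000534), and so was the secreted peroxidase gene Gpx3 (0.63, SE 0.12, adjusted p = 0.0092). Gsto1, an omega-class transferase, was next by p and did not pass with all libraries (0.40, SE 0.11, adjusted p = 0.0517).

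Of 17 thioredoxin and peroxiredoxin genes, 8 rose with GADD45G and 4 fell (median 0.12), where 60.3% of all genes were called, 30.6% higher and 29.7% lower. The peroxiredoxin gene Prdx6 rose from 2670 ± 32.6 to 4821 ± 424 CPM (0.85, SE 0.06), whereas Prdx2 fell by 0.62 (SE 0.05). Sesn2, a stress-induced regulator that is a target of ATF4, NRF2 and p53, rose in both experiments, by 0.61 (SE 0.05, adjusted p = 1.6e-06) and by 0.55 (SE 0.07, adjusted p = 0.0014). Between shLuc and shGADD45G 2 of 17 rose, the other being Txnip, which binds and inhibits thioredoxin (0.71, SE 0.10, adjusted p = 0.0028), and 0 fell. Prdx4 did not pass there with all libraries (-0.37, SE 0.10, adjusted p = 0.0530).

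Of 12 regulators of NRF2, 6 rose and 4 fell with GADD45G (median 0.04), against 30.6% and 29.7% of all genes. Sqstm1, which encodes the autophagy receptor p62 that sequesters KEAP1, rose from 475 ± 3.11 to 951 ± 42.9 CPM (1.00, SE 0.04, adjusted p = 6.2e-09), and Nfe2l1, a relative of Nfe2l2, rose by 0.65 (SE 0.05). The small MAF gene Mafk fell by 0.92 (SE 0.06). Keap1 did not pass in either experiment (-0.12, SE 0.06, adjusted p = 0.0861, and -0.05, SE 0.11, adjusted p = 0.815). In shGADD45G against shLuc libraries 2 of 12 rose, Sqstm1 (0.38, SE 0.08, adjusted p = 0.0162) and Mafk (0.49, SE 0.11, adjusted p = 0.0215), and 0 fell, against 5.15% and 5.27% of all genes. Mafg, another small MAF gene, did not pass with all libraries (0.21, SE 0.09, adjusted p = 0.161).

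Among 24 further NRF2 targets tested, 16 rose and 5 fell with GADD45G (median 0.43), beside a background of 30.6% higher and 29.7% lower. They included Esd, an esterase that acts on S-formylglutathione, which rose from 125 ± 2.62 to 275 ± 6.95 CPM (1.14, SE 0.04), and the ferritin heavy chain gene Fth1, which rose from 1967 ± 33.0 to 4267 ± 275 CPM (1.12, SE 0.05). Idh1, a cytosolic source of NADPH, fell from 258 ± 0.461 to 76.0 ± 3.22 CPM (-1.77, SE 0.05). With shGADD45G 1 of 23 rose, Esd (0.40, SE 0.08, adjusted p = 0.0088), and 0 fell, or 3 and 1 without shGADD45G library 1. Without that library 9.08% of all genes were called higher and 8.99% lower, against 5.15% and 5.27% with all libraries. The pentose phosphate gene Pgd (-0.27, SE 0.08, adjusted p = 0.0581) and Osgin1 (0.41, SE 0.13, adjusted p = 0.0787) did not pass with all libraries.

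Of 17 iron and ferroptosis genes tested, 8 rose and 5 fell with GADD45G (median 0.13), beside 30.6% higher and 29.7% lower of all genes. Gch1, the first enzyme of tetrahydrobiopterin synthesis, rose from 1.15 ± 0.201 to 6.32 ± 1.39 CPM (2.45, SE 0.24), and the phospholipid acyltransferase gene Lpcat3 rose by 0.50 (SE 0.05). Ireb2, an iron-responsive regulator, fell by 0.62 (SE 0.05). Across the hairpin groups 2 of 18 rose and 2 fell, beside 5.15% and 5.27% of all genes. Ireb2 was among those that rose there (0.36, SE 0.09, adjusted p = 0.0343), and the ferrireductase gene Steap3 (-0.78, SE 0.08, adjusted p = 0.000698) and the selenium carrier gene Selenop (-0.64, SE 0.12, adjusted p = 0.0073) fell.

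**Figure D3:**
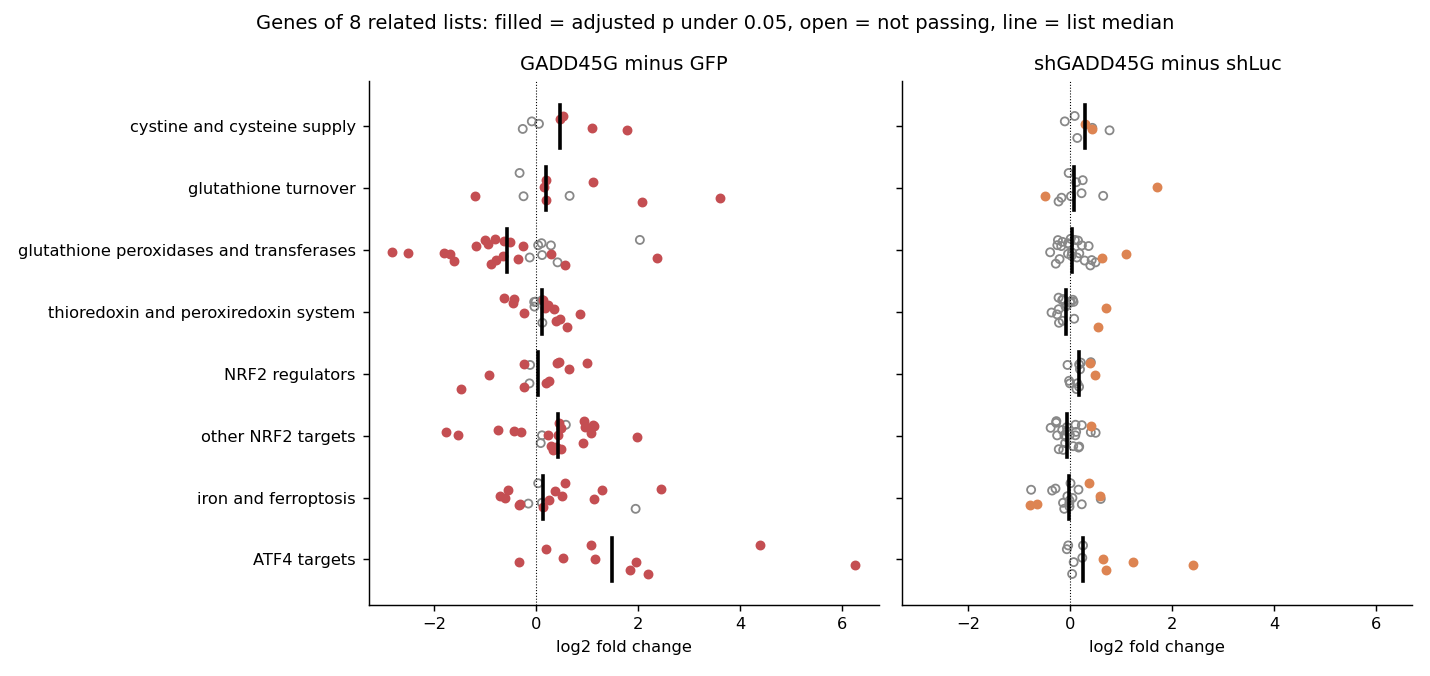
Log2 fold changes (x axis) of the genes of 8 related lists (rows) in the overexpression (left) and knockdown (right) experiments, filled where the adjusted p was under 0.05 and open otherwise, with a black line at the list median. The ATF4 list has the highest median at left (1.49), the glutathione peroxidase and transferase list lies left of 0 there (-0.58), and most points at right are open.

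Of the 8 lists, all chosen with earlier results of these data known, the ATF4 targets had the largest share of genes called in each experiment. With GADD45G 9 of 10 rose and 1, Phgdh, of serine synthesis, fell by 0.34 (median 1.49, where 30.6% of genes were called higher). Trib3, a pseudokinase gene that ATF4 induces, rose from 0.947 ± 0.258 to 73.3 ± 6.60 CPM (6.26, SE 0.13, adjusted p = 2.6e-11). Atf3, another stress-induced transcription factor, rose from 3.10 ± 0.219 to 64.9 ± 4.05 CPM (4.38, SE 0.09), and Asns, the asparagine synthetase gene, from 23.5 ± 0.872 to 90.7 ± 2.44 CPM (1.95, SE 0.05). Between the hairpins 4 of 10 rose and 0 fell (median 0.25, where 5.15% of genes were called higher), namely Atf4, Ddit3, Trib3 and Asns. The next list by share called in that experiment was cystine and cysteine supply, with 2 of 7. There Trib3 went from 6.47 ± 0.674 CPM in shLuc to 34.3 ± 10.8 CPM in shGADD45G libraries (2.40, SE 0.23, adjusted p = 0.000515). Asns went from 31.5 ± 1.39 to 73.9 ± 10.95 CPM (1.23, SE 0.12, adjusted p = 0.000498), and Ddit3, which encodes the stress factor CHOP, from 35.5 ± 2.75 to 57.9 ± 9.54 CPM (0.70, SE 0.13, adjusted p = 0.0077). The same counts were found without GADD45G library 3 and without shGADD45G library 1, where 32.5% and 9.08% of all genes were called higher.

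The genes most like Slc7a11 were sought by Pearson correlation of log2 CPM over the 12 libraries, among 12906 protein-coding genes averaging at least 1 CPM. The 12 points share 4 groups and 2 tables, so the values are a description. The closest were Ddit3 (r = 0.987), Eprs, the glutamyl-prolyl-tRNA synthetase gene (0.986), Fam107b (0.985), Rtp4, an interferon-induced gene (0.983), and F830016B08Rik (0.983). Ddit3 stood at 23.5 ± 0.821, 83.1 ± 6.10, 35.8 ± 2.79 and 58.2 ± 9.55 CPM in the GFP, GADD45G, shLuc and shGADD45G groups. Eprs stood at 114 ± 3.21, 267 ± 12.9, 149 ± 6.10 and 210 ± 11.9 CPM in the same order of groups. Both keep the order of group means seen for Slc7a11, over a narrower range. Within the set, r to Slc7a11 was 0.922 for Gpx4, 0.872 for Gss, 0.860 for Hmox1, 0.841 for Txnrd1 and 0.816 for Srxn1. It was 0.740 for Gclm, 0.582 for Gclc, 0.561 for Nfe2l2 and -0.20 for Nqo1, and the highest of these ranked 236 among the 12906 genes.

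**Figure D4:**
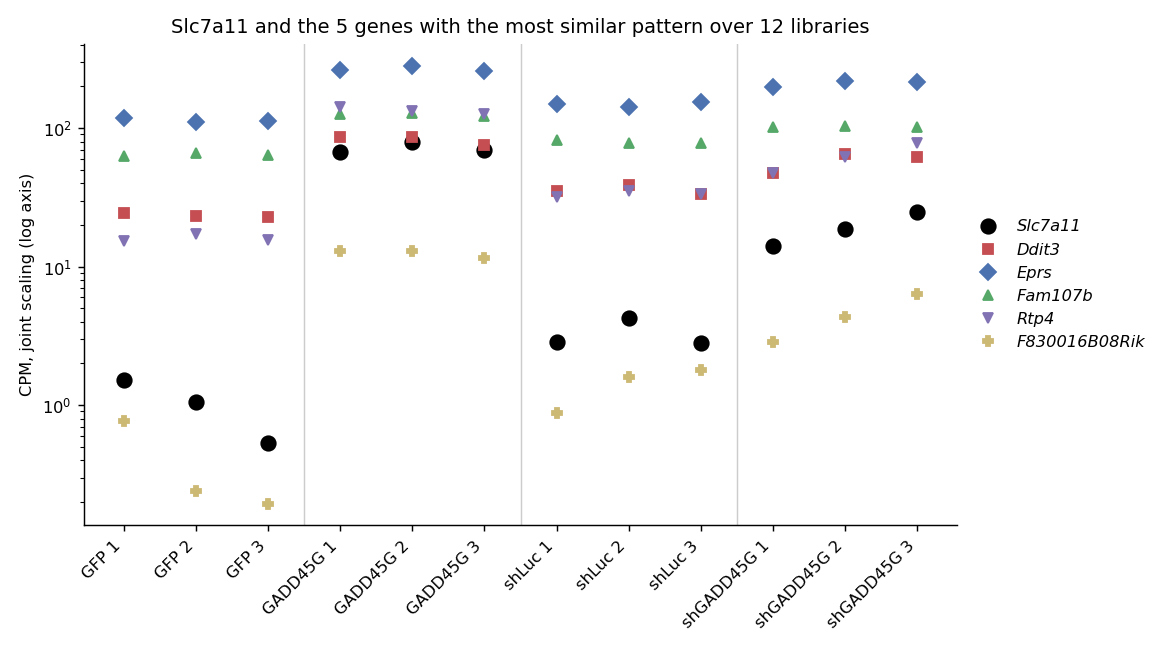
CPM with both tables scaled together (y axis, log) of Slc7a11 and the 5 genes most correlated with it, in each of the 12 libraries (x axis, by group). Every gene is lowest in GFP and highest in GADD45G libraries by group mean, and Slc7a11 spans the widest range, from 0.535 to 79.3 CPM.

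Markers of other cell types moved beside these genes, and in bulk RNA fewer cells of a type and less RNA per cell cannot be told apart. With the hairpin against Gadd45g 13 of 15 tested microglia and macrophage markers were lower and 0 higher, where 5.27% of all genes were called lower and 5.15% higher. The summed level of the 16 markers ran from 265 to 316 CPM in shLuc and from 32.6 to 80.4 CPM in shGADD45G libraries, with none at 0 in either group. Macrophages also express Hmox1, and their part in its levels was not tested. In the overexpression experiment the same sum was 80.1 to 83.9 CPM in GFP and 35.3, 37.3 and 304 CPM in GADD45G libraries. Hmox1 stood at 407, 425 and 391 CPM in these GADD45G libraries, in the same order. The GFP group held the most oligodendrocyte lineage (518 to 534 CPM against 19.6 to 43.6 CPM in GADD45G), fibroblast and mural (937 to 963 against 431 to 645 CPM), endothelial (135 to 143 against 13.8 to 76.3 CPM) and neuron marker RNA (241 to 248 against 70.4 to 77.2 CPM). Called with GADD45G were 7 of 7 tested neuron markers lower, 1 of 5 oligodendrocyte markers higher and 2 lower, 3 of 5 fibroblast markers higher and 2 lower, and 2 of 3 endothelial markers higher and 1 lower. The background for these counts, and for the ependymal markers below, was 30.6% of all genes called higher and 29.7% lower. Of defining markers, the oligodendrocyte lineage gene Sox10 was at 0 or not listed in both GFP and GADD45G. The myelin gene Mobp was at 0 in GADD45G, and at 0 or not listed in both hairpin groups. The endothelial gene Cldn5 and the fibroblast gene Lum were at 0 in all GFP libraries and in GADD45G libraries 1 and 2. Both were counted in GADD45G library 3 alone of these 6, at 106 and 33 counts. All 6 ependymal markers were called higher, with sums of 322 to 329 CPM in GFP and 934 to 1007 CPM in GADD45G libraries. In shLuc and shGADD45G libraries the ranges were 29.7 to 38.5 and 18.4 to 30.6 CPM for the oligodendrocyte lineage, 322 to 330 and 405 to 624 CPM for fibroblast and mural, and 18.9 to 21.4 and 16.4 to 24.3 CPM for endothelial markers. They were 93.0 to 95.1 and 63.6 to 91.1 CPM for neuron and 805 to 844 and 525 to 966 CPM for ependymal markers. The part of these cell types in the differences of the 10 genes was not tested.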

How the data were processed

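The authors deposited 1 table per experiment, whose columns, per the file headers, include whole-number read counts for each gene. The submitters' processing notes name STAR 2.5, HTSeq 0.6.1, DESeq2 and mm10, without parameters. The deposited signal columns (counts divided by a size factor) were not used. The deposited FPKM values were used to compare levels between genes. The authors' log2 fold changes are printed where named, and their p-value columns were used only to count calls. Columns named G45g, shG45g and shCtrl were taken as GADD45G, shGADD45G and shLuc, with their replicate numbers, and 0 columns belonged to other samples.

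Counts were fitted per experiment with edgeR 4.0.16 (R 4.3.3), with trimmed-mean factors, filterByExpr and the quasi-likelihood F test, without covariates. Benjamini-Hochberg adjusted p-values under 0.05 over all genes were called. The standard error is the log2 fold change divided by the square root of F. The difference between experiments came from 1 fit of 12 libraries over genes listed in both tables, which also gave jointly scaled levels. Group values are mean ± SD. Steps were tested on simulated data. The members and lists were chosen with earlier results of these data known. Named genes were the 10 members, up to 3 per list and experiment with the smallest p and the 5 most like Slc7a11. Gsr, Keap1, Phgdh, Atf4, Cth's call, Slc3a2's knockdown value and the genes of the closing section were named after their values were seen. Whether replicates came from separate cultures is not stated, so the spread that p-values rest on may be technical. Alternatives were RLE factors, DESeq2 1.42.0, other filters on low counts, the replicate number as a block and each library left out. All 10 members had the same coordinates in GENCODE M21.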

Additional observations from a re-analysis of the deposited data

Results flagged for a closer look

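In 8 genes the effect of GADD45G over GFP was larger than that of shGADD45G over shLuc in the fit of all 12 libraries (edgeR's quasi-likelihood test), which tested the difference itself. The difference in log2 fold change was 1.87 for Hmox1, where both effects were positive (2.81 and 0.93). It was 1.86 for Txnrd1 (1.83 and -0.04), 1.68 for Srxn1 (1.75 and 0.06), 0.95 for Gclm (0.97 and 0.02) and 0.87 for Gclc (0.73 and -0.15). It was 0.70 for Gss (0.88 and 0.18), 0.63 for Nfe2l2 (0.59 and -0.05) and 0.58 for Gpx4 (0.79 and 0.21). Of all genes tested, 41.0% were called, 20.2% in the same direction as these genes and 20.7% in the other. For 7 of these genes, all but Gss, the shLuc libraries all lay above the GFP libraries, as was the case for 34.2% of 15900 genes.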

How the results depend on the processing

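The counts of genes called among the 9 tested were 8 in the overexpression experiment, 1 in the knockdown experiment and 8 for the difference between them. They were the same with RLE factors, DESeq2, no filter on low counts, the stricter filter and the replicate block. Leave-one-out fits gave 8 in the overexpression experiment and for the difference. In the knockdown experiment they gave 0 to 2, with 0 without any single shLuc library (Hmox1 lost) and 2 without shGADD45G library 1 (Gpx4 gained). Over all genes the knockdown experiment had 1554 calls and 538 to 2745 in leave-one-out fits, with 539, 538 and 613 without shLuc library 1, 2 and 3 and 2745 without shGADD45G library 1. The overexpression experiment had 9300 calls and 8342 to 10143. Over single genes, 386 of the alternative values kept their direction or side of the threshold, 3 lost the call and 1 gained it, and the cause was not tested. With the replicate number as a block, 8948 and 1570 genes were called. Same-numbered libraries correlated at -0.06, -0.03 and 0.02 in the overexpression and at -0.01, 0.17 and 0.14 in the knockdown experiment. In the knockdown experiment shLuc 2 with shGADD45G 3 gave -0.15, and shLuc 3 with shGADD45G 2 gave -0.17. Whether the numbers mark pairs is not stated, and the main fits did not use them. The 11 to 30 counts of Slc7a11 in GFP libraries limit the precision of its ratio. Counts of list genes without GADD45G library 3 or shGADD45G library 1 were chosen after seeing the data.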

Other observations

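The 8 related lists hold 130 genes, some of which were not tested. Of these list genes 96 were called in the overexpression experiment, where 60.3% of all genes tested were called. In the knockdown experiment 19 list genes were called, where 10.4% of all genes tested were. Called in both were 18 list genes, 14 of them in the same direction, where 121 list genes were tested in both. Of all 14621 genes tested in both experiments, 1084 (7.41%) were called in both, 59.4% of these in the same direction. Besides Chac1, Trib3, Asns, Ddit3, Atf4, Sesn2, Sqstm1, Esd and Mat2a these were Gpx3, Txnip, Lpcat3, Steap3 and Selenop. The other 4 moved in opposite directions. Gstm2 fell with GADD45G and rose in shGADD45G libraries (-1.69 and 1.09), as did Mafk (-0.92 and 0.49) and Ireb2 (-0.62 and 0.36). Oplah rose by 0.19 with GADD45G and fell by 0.49 in shGADD45G libraries. In the fit of all 12 libraries the effect of GADD45G minus that of shGADD45G was -2.79 (SE 0.13) for Gstm2, -1.42 (SE 0.12) for Mafk, -0.99 (SE 0.10) for Ireb2 and 0.67 (SE 0.10) for Oplah. Their edgeR adjusted p-values were 7.8e-10, 4.3e-07, 2.5e-06 and 6.9e-05 in that order. These genes were singled out after their values were seen.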
